A study of Mus musculus with 4 samples.

Results

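Toll-like receptor signalling in macrophages is held in check by a group of proteins that cut or cover ubiquitin chains, block the kinases below the receptor, or destroy the messenger RNAs that the pathway makes. The 10 genes described here are listed as brakes and called so below: Tnfaip3, Tnip1, Tnip3, Birc3, Traf1, Irak3, Zc3h12a, Zfp36, Peli1 and Cyld. Birc3 and Peli1 encode ubiquitin ligases, and Peli1 can also pass on the signal. The genes were taken by symbol from the gene names on the array, with every probe. This rule uses no measured value, but the genes were chosen with earlier results of these data known. All 10 were on the array, with 14 probes of 39429 and 10 genes of 30165. Each of the 14 probes had 1 spot per array, and each was well above background on all 4 arrays, so no member was lost to a filter.

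The cells were mouse macrophages that reside in the peritoneal cavity, on a C57BL/6 strain background, and total RNA was labelled with Cy3 and hybridised to 1-colour Agilent arrays. The cells were kept for 2 days in RPMI medium with fetal bovine serum, and 1 day of lipopolysaccharide (LPS, a cell wall component of Gram-negative bacteria) at 100 ng/mL followed in the stimulated cultures. Wild type cells were studied untreated and stimulated, and CD163-deficient cells likewise, which gives 4 groups with 1 array each. CD163 is the scavenger receptor of macrophages for haemoglobin bound to haptoglobin. The labels do not give which part of the gene the deficient mice lack, how many mice gave cells or whether cells were pooled. They also do not say whether the cultures without LPS were kept for the extra day. The design asks what LPS does in each genotype and whether the loss of CD163 alters cells with and without LPS. With 1 array per group, no difference has a check against replicate cultures, and no p-value is given.

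LPS is sensed by Toll-like receptor 4 with its partners Ly96 and Cd14. Adaptor and kinase complexes around Myd88 and the Irak kinases then switch on ubiquitin ligases, whose chains recruit the kinases that release NF-kB into the nucleus. Several brakes are themselves NF-kB target genes, which makes them a feedback loop, while others are present before any signal arrives.

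A level is the log2 of the processed spot intensity minus the 75th percentile of the same array, so a level of 0 stands for that percentile, which lay at an intensity of 909.6 in wild type without LPS and between 1187.5 and 1324.7 on the other arrays. The error given with a value is the one that the scanner software modelled for the spot, about 0.14 for a level, 0.20 for a difference between 2 arrays and 0.29 for a difference between LPS responses. It covers the array and not the spread between cultures. Probes printed in 10 spots had a median SD between spots of 0.08 to 0.10 at levels of -2 or more. Between 24692 and 26504 genes were detected per array, no spot was saturated, and all 4 arrays came from 1 slide and 1 scan day. The Cd163 probe was dim on every array, with levels of -5.47 and -5.01 in wild type without and with LPS and -6.00 and -5.48 in CD163-deficient cells, so it gave little check of the genotype.

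The 8 macrophage markers, among them Adgre1, Csf1r and Lyz2, were detected on all 4 arrays. Their summed linear level, relative to the 75th percentile, was 596 and 713 in the wild type arrays without and with LPS, and 710 and 806 in the CD163-deficient pair. In the same order, 8 markers of large peritoneal macrophages summed to 123, 46.3, 68.8 and 33.9, a sum dominated by Cd5l, whose levels were 6.72, 4.60, 5.77 and 3.50. Of these 8 markers 4 were higher with LPS in both genotypes (Timd4, Icam2, Selp and Ltbp1) and 4 lower. The 12 stromal and mesothelial markers summed to 65.4, 79.8, 58.7 and 51.5, but 10 of them were lower with LPS in wild type cells and 11 in CD163-deficient ones, with medians of -0.61 and -0.89. B cell markers lay between 1.29 and 1.45, T and NK cell markers between 2.19 and 2.72, mast cell markers between 0.79 and 0.88, neutrophil markers between 2.75 and 5.05, eosinophil markers between 0.39 and 1.45, and dendritic cell markers between 0.93 and 1.75. Of the mast cell, neutrophil and dendritic cell markers, Fcer1a, Ngp and Xcr1 were not above background on any array. In these lists 4 of 6, 6 of 7 and 4 of 6 markers were detected on all 4 arrays, and 5 of 7 in the T and NK cell list. The neutrophil sum was higher on both arrays with LPS through Camp and Ly6g, while the other 4 detected markers were lower in both genotypes and the median was -0.11 in each. The dendritic cell sum was higher with LPS too, with medians of 0.37 and 0.35 in wild type and CD163-deficient cells. Of its 5 markers compared, 3 and 4 were higher. The eosinophil sum was lower, with medians of -0.81 and -0.44, while 1 and 2 of its 4 markers were higher. The part of these cell types in the differences below was not tested. In RNA from a whole culture, fewer cells of a type and less RNA per cell cannot be told apart.

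With LPS, 6 of the 10 brakes were 2-fold or more higher in wild type cells, where 6.44% of all 26682 genes compared were, and 7 of 10 in CD163-deficient cells, where 7.24% of 26152 genes were. No brake was 2-fold lower, against 5.09% and 5.5% of all genes. Traf1, Birc3, Irak3, Tnfaip3, Zc3h12a and Tnip1 passed 2-fold in both genotypes and Tnip3 in the CD163-deficient cells, while Peli1 stayed under it. Zfp36 and Cyld were slightly lower in level with LPS, in wild type only after scaling. The median difference over the 10 genes was 1.34 in wild type cells and 1.53 in CD163-deficient ones, against 0.01 and 0.03 over all genes. Because the genes were chosen with earlier results of these data known, these contrasts describe the list and do not test it. For 8 of the 10 brakes both arrays with LPS lay above both without, and for Zfp36 and Cyld both lay below, by the brighter or only probe. The second probe of Cyld did not keep this order. Of the 23911 genes detected on every array, 32.4% had both LPS arrays above and 29.3% both below.

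**Figure D1:**
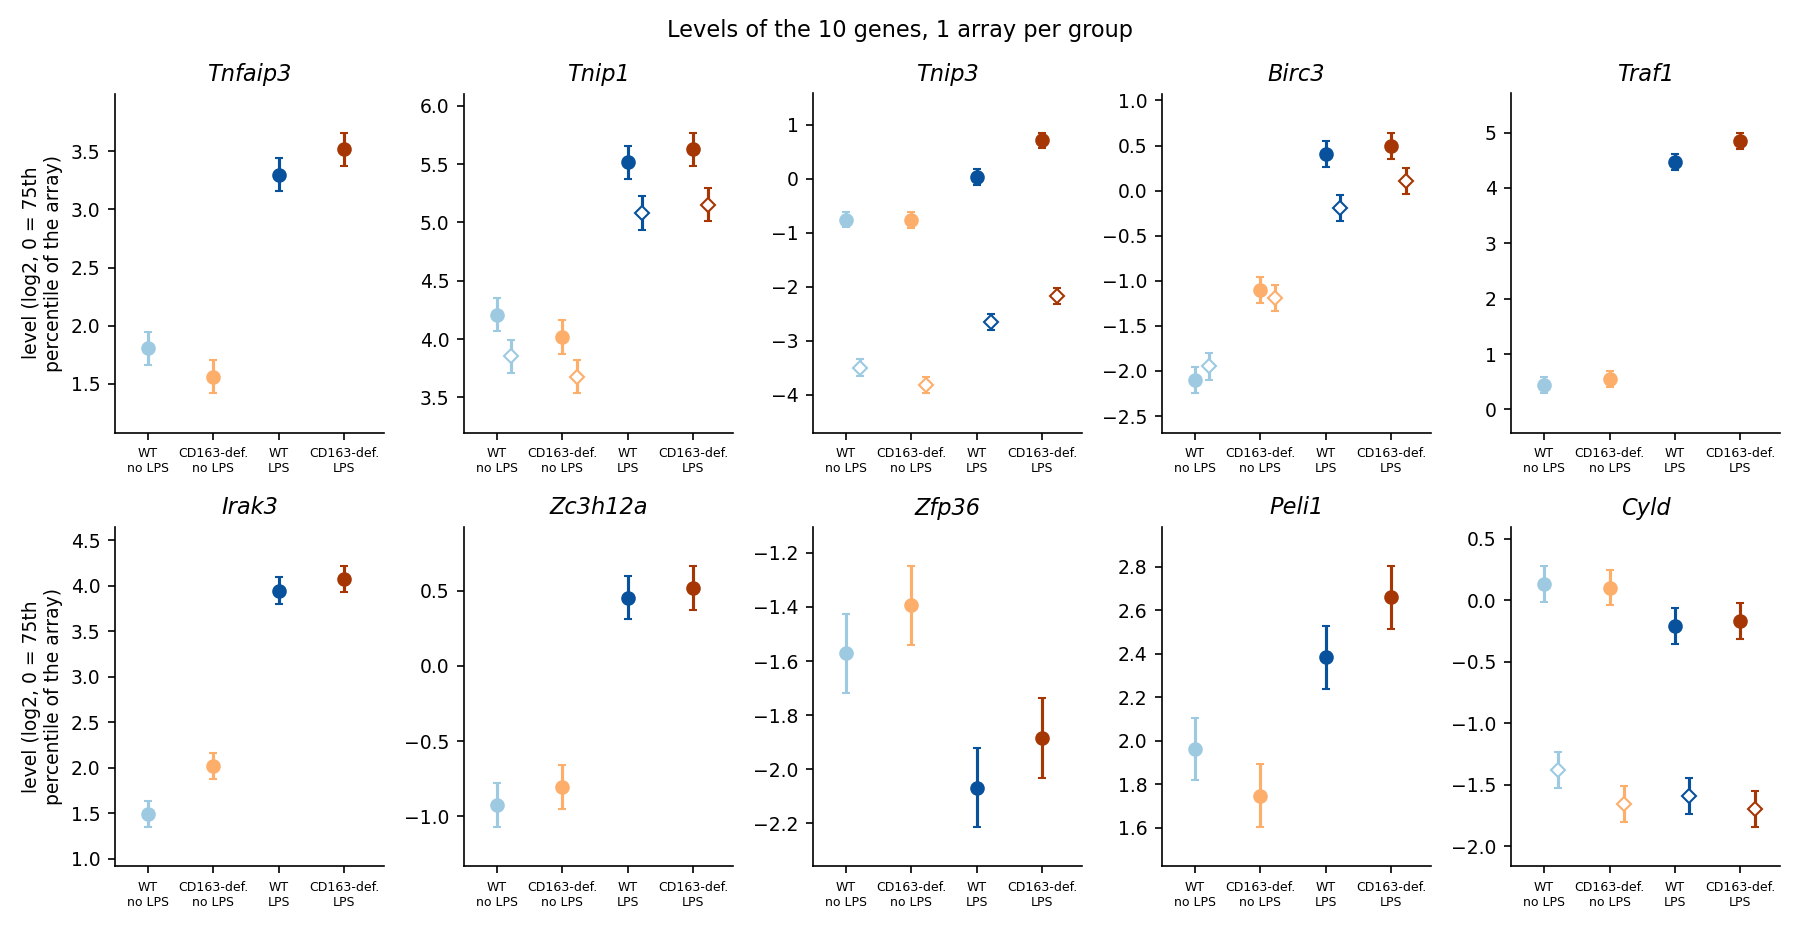
Level of each brake on the 4 arrays (log2, 0 is the 75th percentile of the array; the vertical scales differ between genes). Filled circles are the brighter or only probe, open diamonds the other probe, and bars the spot error of the scanner software; Traf1 shows the widest step with LPS, and Zfp36 and Cyld the downward ones.

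Tnfaip3 encodes A20, an enzyme that removes activating ubiquitin chains from signalling proteins and marks some of them for breakdown. Its level was 1.81 and 3.30 in the wild type arrays without and with LPS, and 1.56 and 3.52 in the CD163-deficient pair, each ± 0.14. Both arrays with LPS were clearly above both without. The difference with LPS was 1.49 ± 0.20 in wild type (2.82-fold) and 1.95 ± 0.20 in CD163-deficient cells (3.88-fold), and the probe lies at chr10:18720776-18720835 on the minus strand of mm9, from base 4302 of the transcript.

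Tnip1 encodes ABIN-1, an adaptor that binds ubiquitin chains and brings A20 to them. Its brighter probe (chr11:54724291-54724350, minus strand, mm9) was at 4.21 and 5.52 in the wild type arrays without and with LPS, and 4.02 and 5.63 in the CD163-deficient pair. The level thus ran in the same order over the 4 arrays as that of Tnfaip3. LPS added 1.30 ± 0.20 in wild type (2.47-fold) and 1.61 ± 0.20 in CD163-deficient cells (3.05-fold). The adjoining second probe gave 1.23 and 1.47.

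Tnip3 encodes ABIN-3, another member of this adaptor family. Its brighter probe starts at base 749 of the transcript, and its 60 bases cover 16341 bases of the genome (chr6:65564732-65581072, plus strand, mm9), so it crosses at least 1 exon junction. Levels were -0.76 and 0.03 in the wild type arrays without and with LPS, and -0.76 and 0.71 in the CD163-deficient pair. The untreated arrays were level with each other, and the CD163-deficient array with LPS stood above the wild type one. With LPS, Tnip3 was 0.79 ± 0.20 higher in wild type (1.72-fold) and 1.47 ± 0.20 higher in CD163-deficient cells (2.77-fold). A second, dimmer probe near the end of the transcript gave 0.85 and 1.65.

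The promoters of the brakes were also read. Of 32851 mouse promoters from RefSeq on GRCm38.p6, each 300 bases from 250 before to 50 after the start of transcription, 2779 (8.46%) hold at least 1 match to the kappa-B consensus, the NF-kB binding motif, on either strand. Of the 12 promoters listed for the 10 brakes 4 hold one, and 3 of these 4 belong to Tnfaip3, Tnip1 and Tnip3. Counted by gene, 4 of the 10 brakes (40.0%) have a match, beside 8 of 21 decay targets of Zfp36 or Zc3h12a (38.1%), 6 of 25 genes of the LPS signal chain (24.0%) and 5 of 28 other brakes (17.9%) with a listed promoter. The 250 bases before the start are printed to show where the matches, in capitals, sit. A match is a description of the letters and not a measured binding site.
Tnfaip3, chr10:19015411-19015660, minus strand: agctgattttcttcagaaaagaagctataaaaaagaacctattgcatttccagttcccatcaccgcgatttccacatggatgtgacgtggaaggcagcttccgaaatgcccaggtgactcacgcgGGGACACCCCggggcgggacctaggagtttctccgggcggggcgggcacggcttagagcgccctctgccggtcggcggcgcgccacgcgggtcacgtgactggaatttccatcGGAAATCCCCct
Tnip1, chr11:54962941-54963190, minus strand: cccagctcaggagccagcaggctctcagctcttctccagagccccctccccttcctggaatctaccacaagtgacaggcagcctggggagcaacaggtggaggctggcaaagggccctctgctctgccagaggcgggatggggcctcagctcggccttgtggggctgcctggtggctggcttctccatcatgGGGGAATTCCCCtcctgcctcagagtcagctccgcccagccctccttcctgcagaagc
Tnip3, chr6:65590148-65590397, plus strand: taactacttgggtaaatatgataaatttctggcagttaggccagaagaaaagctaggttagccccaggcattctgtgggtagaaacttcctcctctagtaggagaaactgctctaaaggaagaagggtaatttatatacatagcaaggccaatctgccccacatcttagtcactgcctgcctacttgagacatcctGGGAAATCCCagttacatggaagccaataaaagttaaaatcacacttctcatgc

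In Tnfaip3 the 2 matches begin 125 and 12 bases before the start, the nearer one on the opposite strand, and the promoter of its other listed start holds none. In Tnip1 there are 3 overlapping matches that together run from base 58 to base 47 before the start. Tnip3 has 1 match, GGGAAATCCC, from base 54 to base 45. The matches of Tnip1 and Tnip3 therefore lie at nearly the same distance from the start.

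Birc3 encodes cIAP2, a ubiquitin ligase that works with the Traf adaptors and also protects cells from death. Its brighter probe was at -2.10 and 0.40 in the wild type arrays without and with LPS, and -1.10 and 0.50 in the CD163-deficient pair. The wild type array without LPS was thus the lowest by a wide step, and the arrays with LPS were within their error of each other. LPS added 2.51 ± 0.21 in wild type (5.68-fold) and 1.60 ± 0.20 in CD163-deficient cells (3.03-fold). The other probe gave 1.76 ± 0.21 and 1.30 ± 0.20, and the gap of 0.75 between the probes in wild type was the widest among the 4 brakes with 2 probes, against a combined error of 0.29. Both probes are printed because they disagree in size. They read different stretches of the gene, and each keeps 1 reading frame open over its 60 bases. Of the 14 probes of the brakes, 12 keep a frame open, so this does not set the Birc3 probes apart.
Birc3, brighter probe, chr9:7854409-7854468, minus strand, mm9: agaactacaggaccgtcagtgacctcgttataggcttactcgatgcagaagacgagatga
Birc3, other probe, chr9:7856162-7856221, minus strand, mm9: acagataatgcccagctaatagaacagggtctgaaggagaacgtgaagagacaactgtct

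Traf1 encodes an adaptor of the TRAF family that lacks the ligase domain, binds Traf2 and the cIAP proteins, and is strongly induced by NF-kB in many cells. Its processed intensity was 1229 and 29480 in the wild type arrays without and with LPS, and 1846 and 34346 in the CD163-deficient pair. In levels these were 0.43, 4.48, 0.55 and 4.85. The arrays fell into a low pair without LPS and a high pair with LPS, with 3.92 between the nearest arrays of the pairs. Traf1 had the largest difference of the 10 brakes in both genotypes, at 4.04 ± 0.20 in wild type (16.5-fold) and 4.30 ± 0.20 in CD163-deficient cells (19.7-fold). It ranked 101 of 26682 genes in wild type and 113 of 26152 in CD163-deficient cells, counted from the highest. The probe lies at chr2:34798882-34798941 on the minus strand of mm9. Its promoter window holds no kappa-B match, which says only that these letters are not in these bases, and it is printed beside those of the A20 group for comparison.
Traf1, chr2:34961773-34962022, minus strand, GRCm38.p6: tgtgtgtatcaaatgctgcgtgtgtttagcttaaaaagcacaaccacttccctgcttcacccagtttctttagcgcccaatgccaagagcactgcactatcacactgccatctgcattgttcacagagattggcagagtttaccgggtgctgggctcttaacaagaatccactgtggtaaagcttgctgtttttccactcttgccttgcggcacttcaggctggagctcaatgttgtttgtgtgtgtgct

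Irak3 encodes IRAK-M, an Irak family protein with little kinase activity that holds the other Irak proteins on the receptor complex and is linked to endotoxin tolerance. Its level was 1.496 and 3.95 in the wild type arrays without and with LPS, and 2.02 and 4.07 in the CD163-deficient pair. The arrays with LPS were alike, and wild type without LPS was the lowest array, as for Birc3. The difference with LPS was 2.45 ± 0.20 in wild type (5.46-fold) and 2.05 ± 0.20 in CD163-deficient cells (4.15-fold). The Irak3 probe lies at chr10:119578999-119579058 on the minus strand of mm9.

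Peli1 encodes a ubiquitin ligase of the Pellino family, which acts on Irak proteins and can either pass on or restrain the signal depending on the cell type. Its level was 1.96 and 2.38 in the wild type arrays without and with LPS, and 1.75 and 2.66 in the CD163-deficient pair. Both arrays with LPS were above both without, but less so than for the genes above. The difference was 0.42 ± 0.20 in wild type (1.34-fold) and 0.91 ± 0.20 in CD163-deficient cells (1.88-fold), below 2-fold in both. The probe is at chr11:21050222-21050281, plus strand, mm9.

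Zc3h12a encodes Regnase-1, a ribonuclease that cuts messenger RNAs of inflammatory cytokines at stem-loops. Its level was -0.93 and 0.45 in the wild type arrays without and with LPS, and -0.81 and 0.52 in the CD163-deficient pair. The genotypes were within their error of each other at each treatment. With LPS it was 1.38 ± 0.20 higher in wild type (2.60-fold) and 1.32 ± 0.20 higher in CD163-deficient cells (2.504-fold), read at chr4:124795870-124795929, minus strand, mm9.

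Zfp36 encodes tristetraprolin, which binds AU-rich elements in messenger RNAs and brings the machinery that shortens their poly(A) tails. Its level was -1.57 and -2.07 in the wild type arrays without and with LPS, and -1.39 and -1.88 in the CD163-deficient pair. Both arrays with LPS were below both without in level, the reverse of the 8 brakes above. Its processed intensity was 306.0 without and 316.1 with LPS in wild type, and 478.4 and 321.7 in CD163-deficient cells. The lower value in wild type thus rests on the scaling. The difference was -0.50 ± 0.21 in wild type, 1.41-fold lower with LPS, and -0.49 ± 0.21 in CD163-deficient cells, 1.40-fold lower. The only time measured was 1 day after LPS. Its probe, at chr7:29161940-29161999 on the minus strand of mm9, is the only one of the 14 that holds the AU-rich core TATTTAT, which 481 of all 39429 probes (1.22%) contain. The core occurs there 2 times, and bases 3 to 32 of the probe are printed to show the first copy in capitals.
Zfp36, part of the probe: atgacgacttTATTTATtgtattaagattt

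Cyld encodes a deubiquitinase that removes activating chains from signalling proteins and is present in most resting cells. Its brighter probe was at 0.13 and -0.21 in the wild type arrays without and with LPS, and 0.10 and -0.17 in the CD163-deficient pair. The whole range of this probe over the arrays was small, and both arrays with LPS were the lower ones in level. Its processed intensity was 998.3 without and 1146.9 with LPS in wild type, and 1350.6 and 1056.9 in CD163-deficient cells. In wild type the lower value thus appears only after scaling. The difference in level was -0.34 ± 0.20 in wild type (1.27-fold lower) and -0.27 ± 0.20 in CD163-deficient cells (1.21-fold lower). The second probe, which starts at base 374 of its transcript and not near the end, gave -0.21 and -0.04. On that probe wild type with LPS (-1.59) lay above untreated CD163-deficient cells (-1.655), so the LPS arrays were not both the lower ones. Cyld is the fourth brake with a kappa-B match in a promoter, so the match is also found in a gene whose level was not higher with LPS. It lies from base 155 to base 146 before the start.
Cyld, chr8:88696778-88697027, plus strand, GRCm38.p6: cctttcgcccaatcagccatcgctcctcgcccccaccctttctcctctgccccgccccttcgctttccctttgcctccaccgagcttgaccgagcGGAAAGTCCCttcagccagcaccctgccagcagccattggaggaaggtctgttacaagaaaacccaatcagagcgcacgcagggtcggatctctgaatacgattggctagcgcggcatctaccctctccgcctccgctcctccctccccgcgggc

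**Figure D2:**
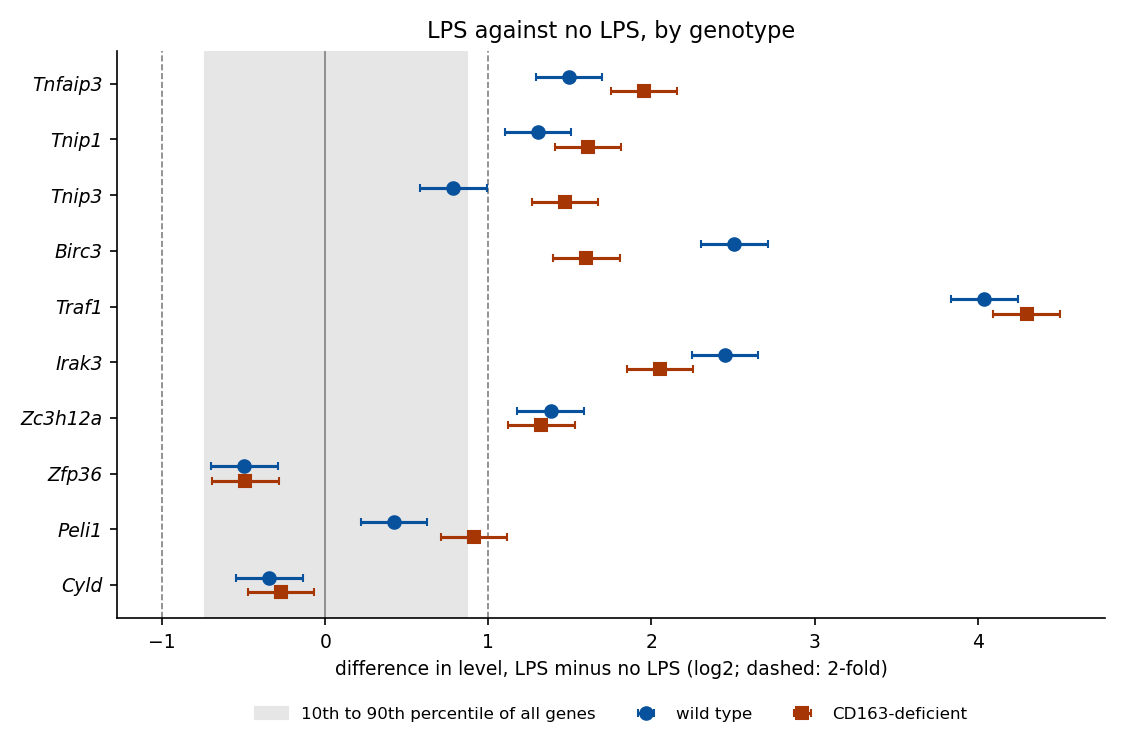
Difference in level between arrays with and without LPS for each brake, in wild type (circles) and CD163-deficient cells (squares), with spot errors as bars. Traf1 lies above 4 in both genotypes, Birc3 and Irak3 are further right in wild type, Tnip3 passes 2-fold (dashed) in CD163-deficient cells alone, and Zfp36 and Cyld lie left of 0; the grey band spans the 10th to 90th percentile of all genes, taken over both comparisons.

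Without LPS, the brakes gave no common direction between the genotypes. Of the 10 genes 5 had a higher and 5 a lower level in the CD163-deficient array, where 42.1% of all 25924 genes had a higher one. Before scaling, the processed intensity of every brake was higher in that array. Its 75th percentile was 1257.5, against 909.6 in wild type. The median difference was 0.06 against -0.06 over all genes. Birc3 alone reached 2-fold higher, at 1.00 ± 0.21 (2.00-fold), and none was 2-fold lower, where 1.3% and 1.15% of all genes were. The Birc3 value sits on the threshold, and its second probe gave 0.76. Irak3 followed at 0.52 ± 0.20. Traf1 (0.12), Zc3h12a (0.12) and Zfp36 (0.18) were within their error of 0. Of the 5 lower genes, Tnfaip3 (-0.24) and Peli1 (-0.21) lay just beyond 1 error, and Tnip1 (-0.20), Cyld (-0.03) and Tnip3 (-0.0035) within it.

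With LPS, all 10 brakes had a higher level in the CD163-deficient array than in the wild type one, but none by 2-fold. Of all 26672 genes, 1.24% were 2-fold higher and 1.09% lower. Before scaling, the processed intensities of Tnip1, Birc3, Irak3, Zc3h12a and Cyld were lower in the CD163-deficient array, by the brighter or only probe. Those of the other brakes were higher. The 75th percentile was 1187.5 on that array and 1324.7 on the wild type one. The differences in level ran from 0.04 for Cyld to 0.68 for Tnip3. Their median was 0.15 against 0.0047 over all genes, of which 50.9% were above 0. The second probe of Cyld was on the other side, at -0.11. Tnip3, at 0.68 ± 0.20 (1.60-fold), ranked 661 of 26672 genes, and its second probe gave 0.48 ± 0.21. Traf1 (0.38), Peli1 (0.28) and Tnfaip3 (0.22) were beyond 1 error but within 2. Zfp36 (0.18), Irak3 (0.12), Tnip1 (0.11), Birc3 (0.10), Zc3h12a (0.06) and Cyld (0.04) were within 1 error. The second probe of Birc3 gave 0.30 ± 0.20, beyond 1 error.

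**Figure D3:**
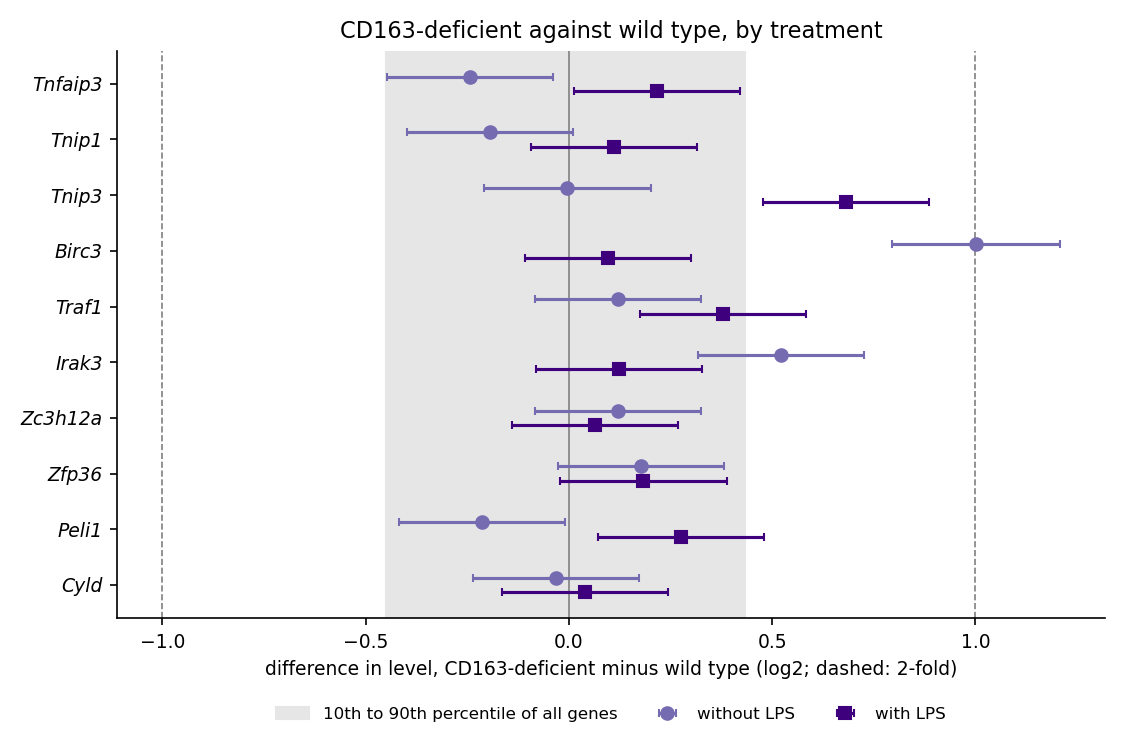
Difference in level between CD163-deficient and wild type arrays for each brake, without LPS (circles) and with LPS (squares), with spot errors as bars and 2-fold as dashed lines. Birc3 without LPS reaches 1.00 and Tnip3 with LPS 0.68, while most others overlap 0 within about 1 error; the grey band is the 10th to 90th percentile of all genes, taken over both comparisons.

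The LPS response of CD163-deficient cells minus that of wild type was under 2-fold for all 10 brakes, where 1.51% of the 23911 genes detected on every array were 2-fold higher by this measure and 2.29% lower. It uses the same 4 arrays as the values above and adds no new measurement. The response was larger in CD163-deficient cells for 7 brakes and smaller for 3, where 59.8% of all genes compared were above 0. The median was 0.16 against 0.08 over all genes. The widest gaps were those of Birc3 (-0.91 ± 0.29, second probe -0.46) and Tnip3 (0.68 ± 0.29, second probe 0.80). Peli1 stood at 0.49 ± 0.29, Tnfaip3 at 0.46 ± 0.29 and Irak3 at -0.40 ± 0.29. Tnip1 (0.31), Traf1 (0.26), Cyld (0.07), Zfp36 (0.0062) and Zc3h12a (-0.06) completed the group. For Irak3 and the brighter probe of Birc3 the levels with LPS were alike in both genotypes, and the gap lay in the arrays without LPS. The second Birc3 probe differed between genotypes by 0.76 ± 0.21 without LPS and 0.30 ± 0.20 with LPS. The untreated wild type array had the lowest 75th percentile of the 4 arrays, at 909.6, and its part in these gaps was not tested. For Tnip3 the untreated levels of the brighter probe were alike, and its gap lay in the arrays with LPS. The second Tnip3 probe differed between genotypes by -0.32 ± 0.22 without LPS and 0.48 ± 0.21 with LPS.

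For 4 genes with 2 probes the sign could be compared within the gene over the 5 comparisons, and it was the same in 19 of 20 cases. The exception was Cyld between genotypes with LPS. For Tnip1, Tnip3 and Cyld the widest gap between probes was 0.32, against a combined error of 0.30, for Tnip3 between genotypes without LPS.

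By level, the 4 arrays order the brakes in few ways. Tnfaip3, Tnip1, Tnip3 and Peli1 were lowest in untreated CD163-deficient cells, then in untreated wild type, stimulated wild type and stimulated CD163-deficient cells. For Tnip1 the steps between genotypes were within 1 error, and for Tnip3 the first step was. Birc3, Traf1, Irak3 and Zc3h12a were lowest in wild type without LPS and were next in untreated CD163-deficient, then stimulated wild type and last stimulated CD163-deficient cells. Of their genotype steps, those of Birc3 and Irak3 without LPS exceeded 2 errors. Zfp36 and Cyld were lowest in wild type with LPS, Cyld by its brighter probe, and none of their steps exceeded 2 errors. The second probe of Cyld was lowest in stimulated CD163-deficient cells, at -1.70 against -1.59 in stimulated wild type.

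The genes most like each brake over these 4 arrays were found among 13379 genes detected on all of them with a mean level of -2 or more, by the root mean square distance (log2) between levels centred on each gene's own mean. Dtx2 (0.01), Ubtf (0.03) and Gm10447 (0.04) were nearest to Tnfaip3, and Gas7 (0.02) and Cycs (0.04) to Tnip1, followed by a probe without a gene name. A530032D15Rik (0.06) and Tmem229b (0.07) were nearest to Tnip3, whose other neighbour was also unnamed. Gm1966 (0.11), Lacc1 (0.12) and Pde4b (0.12) were nearest to Birc3, which had the most distant neighbours of the 10. Ifi213 (0.05), 9030619P08Rik (0.05) and Smpdl3b (0.06) were nearest to Traf1. Ell2 (0.04), Dst (0.04) and Gm14488 (0.08) were nearest to Irak3. Pvr (0.02) and Tor3a (0.04) were nearest to Zc3h12a, and Zfp362 (0.01), Antxr2 (0.02) and Klf13 (0.02) to Zfp36. Mrpl54 (0.01) was nearest to Peli1, and Mlxipl (0.01) and Hgfac (0.01) were among the nearest to Cyld. The other neighbours of Zc3h12a, Peli1 and Cyld were listed by a probe, transcript or locus identifier.

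Other genes of the pathway give the setting. Of 36 further brakes on Toll-like receptor and NF-kB signalling, 5 were 2-fold or more higher with LPS in wild type and 4 lower, with a median of 0.11. In CD163-deficient cells 6 were higher and 3 lower, with a median of 0.21. The largest differences were those of Socs1, which blocks cytokine receptor kinases (4.42 in wild type cells, 4.71 in CD163-deficient ones), and Usp18, which restrains interferon signalling (4.19 and 4.69). N4bp1, a ribonuclease that also binds ubiquitin, followed with 2.47 and 1.53, and Nlrc5, a regulator of class I genes, with 1.94 and 2.36. Tax1bp1, an adaptor of A20, was at 1.22 and 0.58. A difference of 2-fold was passed in CD163-deficient cells alone by Traf2 (0.83 in wild type, 1.68) and Bcl3 (0.84, 1.37). On the lower side, Zfp36l1, a relative of Zfp36, was at -1.68 and -2.14. Zfp36l2, another, was at -1.06 and -0.96, Rc3h1, which encodes Roquin-1, at -1.25 and -0.997, and Tnfaip8l2 at -1.15 and -0.98. Otud7b (-0.15 in wild type, -1.10) and Peli2 (-0.59, -1.44) passed in CD163-deficient cells alone. No gene of this list differed 2-fold between genotypes at either treatment, nor in its LPS response.

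Of 36 genes of the LPS receptor and its signal chain, 11 were 2-fold or more higher with LPS in wild type cells and 8 in CD163-deficient ones, and none was lower. Their medians were 0.24 and 0.24. Cd14, the co-receptor of LPS, was at 2.07 and 2.01, and Nfkbia, which encodes the inhibitor IkB-alpha, at 1.97 and 2.38. The related inhibitors Nfkbib (1.40 and 1.65) and Nfkbie (1.08 and 1.67) and the NF-kB subunit Nfkb2 (1.38 and 1.46) passed in both. The kinases Tbk1 (1.53 and 0.67) and Ikbke (1.44 and 0.89) and the adaptor Ticam2 (1.44 and 0.77) passed in wild type alone. The receptor itself, Tlr4, was at -0.05 and -0.29. Between genotypes no gene of this list passed 2-fold at either treatment, Rel being counted by its bound. Rel, an NF-kB subunit, was not detected in untreated wild type cells, and without LPS it was 1.69 higher in CD163-deficient cells as measured and at least 1.30-fold by the bound. In their LPS responses none of the 35 genes compared, which leave out Rel, differed 2-fold.

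Of 28 transcripts known as targets of Zfp36 or Zc3h12a, 21 were 2-fold or more higher with LPS in each genotype, with medians of 2.502 (wild type) and 2.87. In wild type the interleukins Il1a (7.43), Il12b (7.23), Il1b (6.32) and Il6 (5.50) and the chemokine Cxcl2 (6.05) were among the largest, and in CD163-deficient cells they were at 7.04, 7.59, 6.67, 6.42 and 6.24. Cxcl3, Il12a and Csf3 were well above background only with LPS and were at least 1285-fold, 13.1-fold and 10.9-fold higher in wild type. For such a bound, the untreated array is put at the lowest detected level of that array, or at the measured level where that is higher. Plk2 (-1.22 and -1.11) and Tfrc, the transferrin receptor (-2.17 and -1.75), were 2-fold lower in both genotypes, and Id1 (-1.03 and -0.69) in wild type alone. Between genotypes without LPS none of 24 targets compared reached 2-fold. With LPS only Ifng did, at 1.14 higher in the CD163-deficient array, while Tnf was at 0.86. In their LPS responses 22 targets were compared, which leave out Csf2, Csf3, Cxcl3, Il12a, Il23a and Lif. Of these 22 only Ifng differed 2-fold, with a response 1.66 larger in CD163-deficient cells. Ifng, made mainly by T and NK cells, had levels of -4.59 and -1.12 in the wild type arrays without and with LPS and -5.11 and 0.02 in the CD163-deficient pair. The summed T and NK cell markers with LPS were 2.37 and 2.29 in the genotypes, and their part was not tested.

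**Figure D4:**
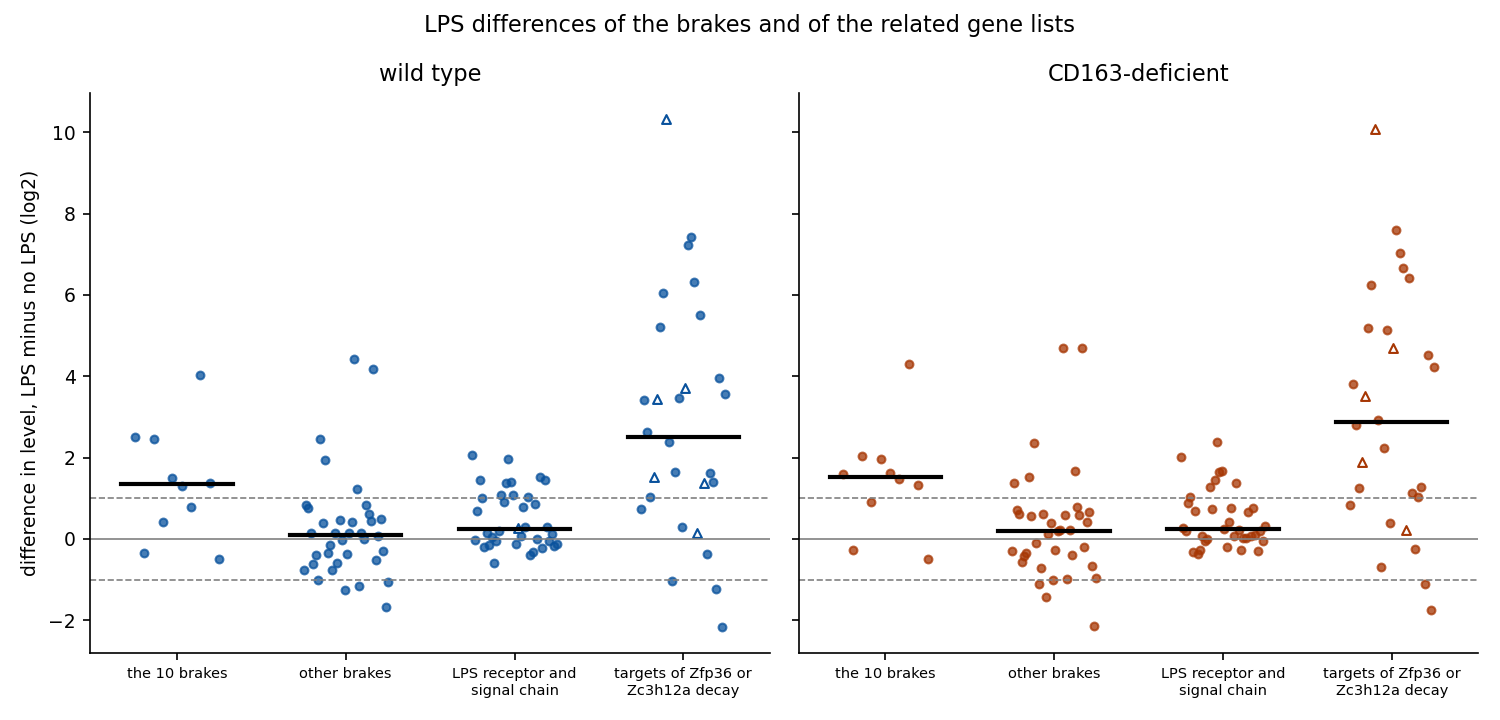
Difference in level between arrays with and without LPS for the 10 brakes and the 3 related lists, in wild type and CD163-deficient cells. Each point is a gene, open triangles are bounds for genes not detected on 1 of the arrays, thick lines are medians and dashed lines 2-fold; the brakes have medians of 1.34 and 1.53, and the targets of Zfp36 or Zc3h12a decay reach the highest values.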

How the data were processed

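Per the file headers, the deposited scanner files give the intensity of each spot, extracted with version 10.7.1.1 of Agilent Feature Extraction (the submitters' processing notes name 9.5.1.1), corrected for background inside each array. Spots of the 4 arrays were not adjusted between arrays. From the processed signal, log2 minus the 75th percentile of the array's non-control spots was computed, and spots of 1 probe were averaged. The probe with the highest mean level stood for a gene. A gene was compared where it was detected (at least 50% of spots well above background) on 1 array or more, and on all 4 for the difference between LPS responses. In counts, an undetected array was set to the higher of the gene's level and the lowest detected level.

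With 1 array per group nothing was tested, and genes were counted at 2-fold. The counting was tested on simulated data. Alternatives used limma 3.58.1 in R 4.3.3, and Python 3.11.15 with pandas 2.3.3 did the rest. The deposited value table, an intensity scale equal to a quantile normalization within 0.0001 (median, log2), was an alternative. All 10 genes are named, with every gene of the 3 pathway lists that was 2-fold apart, or, beyond 8 such genes, the 8 largest in wild type, and for each brake its 3 nearest genes. Further genes were named after their values were seen. Probe positions are on mm9. The members and lists were chosen with earlier results of these data known.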

Additional observations from a re-analysis of the deposited data

Results flagged for a closer look

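For 5 brakes the difference in level between CD163-deficient and wild type cells had opposite signs without and with LPS. With 1 array per group these differences were not tested. Tnfaip3 was at -0.24 without LPS and 0.22 with LPS, Peli1 at -0.21 and 0.28, and Tnip1 at -0.20 and 0.11. Tnip3 went from -0.0035 to 0.68, and Cyld from -0.0313 to 0.0398. Each value has a spot error of about 0.20, so only the value of Tnip3 with LPS exceeded 2 errors. Under some of the alternatives the sign changed for Tnip3 without LPS (-0.16 to 0.05), Cyld without LPS (-0.15 to 0.02) and Cyld with LPS (-0.03 to 0.06). Before scaling, the processed intensity without LPS was higher in CD163-deficient cells for all 5 genes. The negative values without LPS, and the positive ones of Tnip1 and Cyld with LPS, thus appear only after scaling.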

How the results depend on the processing

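The direction of the LPS difference was the same for all 10 brakes under every alternative run, and 6 and 7 brakes were 2-fold higher in wild type and CD163-deficient cells, except that 5 of 8 were in wild type among genes at a level of -2 or more, where Birc3 and Zfp36 dropped out. Birc3, the 1 brake 2-fold apart between genotypes without LPS, fell under 2-fold with normexp background correction (0.76) and with the mean of all probes, and dropped out at a level of -2 or more, so that the count was 0 under each. Birc3 in wild type with LPS was 2.17 and 2.13 under the first 2 of these settings. With normexp, Tnip3 with LPS was 1.25 in CD163-deficient cells and 0.47 between genotypes, and the difference between LPS responses of Birc3 was -0.59. Quantile normalization gave 1.40 for Tnip1 in CD163-deficient cells with LPS. Every alternative also used scaled levels, so none shows the differences without scaling.

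The background of all genes 2-fold apart depended more on the settings. In the order LPS in wild type, LPS in CD163-deficient cells, genotype without LPS, genotype with LPS and difference between responses, it was 3075, 3333, 636, 622 and 908 genes as reported. It was 2013, 2145, 151, 122 and 397 with normexp, and 1551, 1582, 71, 24 and 156 at a level of -2 or more. With detection on every array it was 395 and 359 for the genotype comparisons. With no detection filter it was 1544 and 1513 for these and 3174 for the difference between responses. The share that was higher among the genes apart went from 53.0% to 31.8% without LPS, from 53.4% to 73.0% with LPS and from 39.7% to 62.2% for the responses under normexp, which moved the medians of all genes to -0.18 for LPS in wild type, -0.17 for genotype without LPS and 0.19 for the responses. No paired analysis was possible because each group has 1 array. The 14 probes of the brakes were above background on every array, and the spread between cultures was not measured.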
